A study of Homo sapiens with 6 samples.

Results

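The BCL2 family holds the proteins that decide whether the outer mitochondrial membrane stays intact, and 10 of its genes were followed here in T47D cells under low oxygen. They were chosen by symbol from the 27754 genes in the count tables. BCL2, BCL2L1 and MCL1 are antiapoptotic, BAX and BAK1 are the pore-forming effectors, and BCL2L11, BBC3, PMAIP1, BMF and BIK belong to the BH3-only group. T47D is an established luminal-like breast cancer cell line and was grown here in RPMI with fetal bovine serum. The 3 normoxia libraries came from control cells at 20% O2, for which the labels give no time and the study's text gives 48 h. The 3 hypoxia libraries came from cells kept at 0.5% O2 for 48 h. No drug, transgene or genetic change is named for either condition. The study's text names another oxygen level for its hypoxia, so the exact dose is uncertain. The comparison asks how the mRNA of each member differs between hypoxia and normoxia. The study describes its data as coming from independent experiments, and its methods call the hypoxia and normoxia samples paired. The labels do not say what a replicate is. The p-values measure the spread between these libraries, and the main fit does not use the pairs.

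Cells commit to the intrinsic pathway of apoptosis when BAX and BAK1 oligomerise in the outer mitochondrial membrane and release cytochrome c, which builds the apoptosome and activates caspases. Antiapoptotic members hold BAX, BAK1 and the BH3-only proteins in their groove, and BH3-only proteins, switched on by stress, occupy that groove or activate the effectors directly. In luminal breast cancer BCL2 is known as an estrogen receptor target gene. Many members are also controlled by splicing, phosphorylation and protein turnover, which gene counts do not show.

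Totals ran from 32989104 to 40943424 counts in 5 libraries and reached 89883409 in hypoxia replicate 3. Levels are CPM, read counts divided by library size and scaled by TMM, and 3 counts equal between 0.0328 and 0.0969 CPM. Between genes, levels are compared as RPKM, the CPM per kilobase of exon length. The edgeR quasi-likelihood test covered 15657 genes, with Benjamini-Hochberg adjusted p under 0.05 as the threshold. All 8 hypoxia-response genes checked rose, VEGFA by 4.36 and CA9 by 5.29 on the log2 scale. Upper-quartile scaling moved the median log2-fold change of all tested genes from 0.03 to 0.19 and the share of calls that were higher from 51.1% to 64.5%, and scaling by library totals moved that median to 0.14. The luminal markers KRT8, KRT18 and EPCAM were high in every library, whereas the basal keratins KRT5 and KRT14 and the leukocyte marker PTPRC averaged at most 0.302 CPM in either condition. Of the 8 basal and mesenchymal markers 6 could be tested, and 2 were higher in hypoxia, KRT17 (0.0522 to 0.996 CPM, from at or under the floor of 3 counts, edgeR adjusted p = 4.48e-04) and AXL (3.48 to 13.6 CPM, log2-fold change 1.97, edgeR adjusted p = 2.33e-04). Of the 12 stromal and blood cell markers 2 could be tested. PDGFRB was higher (0.0323 to 0.381 CPM, also from at or under that floor, edgeR adjusted p = 0.00624), and COL1A1, at 88.7 and 84.3 CPM, did not pass the test. Of the 10 luminal markers, 5 were lower in hypoxia, ESR1 and PGR among them, and 0 higher, beside 29.1% and 30.4% of tested genes. The summed level of the 10 was 15612 to 19558 CPM in normoxia and 11200 to 14264 CPM in hypoxia. With the replicate number as a block 7 luminal markers were lower, KRT8 and KRT18 among them, and 1 was higher, CDH1. In that fit 35.2% of tested genes were lower and 36.6% higher. Replicate 3 of both conditions stood apart over the counted genes as a whole. Between replicates 1 and 2 the chi-square per degree of freedom of the counts was 8.08 in normoxia and 6.09 in hypoxia. Between replicate 3 and replicates 1 and 2 it was 34.7 and 47.1 in normoxia, and 57.2 and 68.5 in hypoxia. This measure uses raw counts and grows with depth. Hypoxia replicate 3 was the deepest library, so the hypoxia and normoxia values cannot be compared directly. The cause of the distance of replicate 3 was not tested. Replicate 3 of both conditions also stood apart in the mesenchymal genes VIM, CAV1 and MSN. VIM was at 12.8 and 11.0 CPM there against 0.177 to 0.957 CPM in the other 4 libraries, and the summed 8 basal and mesenchymal markers ranged from 4.13 to 21.0 CPM in normoxia and from 15.9 to 31.3 CPM in hypoxia. The part of these marker differences in the results was not tested, and in bulk RNA a lower share of some cells cannot be told apart from less RNA per cell.

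All 10 members were abundant enough to be tested. In hypoxia 4 members were higher (BCL2L11, BBC3, PMAIP1 and BMF), where 30.4% of all tested genes were higher, and 3 were lower (BCL2, BCL2L1 and BAK1), where 29.1% of all tested genes were lower. MCL1, BAX and BIK did not pass the test. With a change of at least 1 on the log2 scale as a second condition, 2 members were higher (BBC3 and PMAIP1) beside 15.2% of tested genes, and 1 was lower (BCL2) beside 4.91%. The 2 conditions did not overlap in CPM for 8 of the 10 members, compared with 67.3% of tested genes. The median log2-fold change of the members was 0.18, and that of all tested genes 0.03. These shares are of the order of the background. By class, 0 of 3 antiapoptotic members were higher and 2 lower, 0 of 2 effectors were higher and 1 lower, and 4 of 5 BH3-only members were higher and 0 lower. Outside the 10 members, the BH3-only genes BID and BAD were lower and HRK was higher. Without replicate 3 of both conditions 4 members were higher and 3 lower, beside 36.4% and 34.8% of tested genes, and with the replicate block 4 and 3, beside 36.6% and 35.2%.

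**Figure D1:**
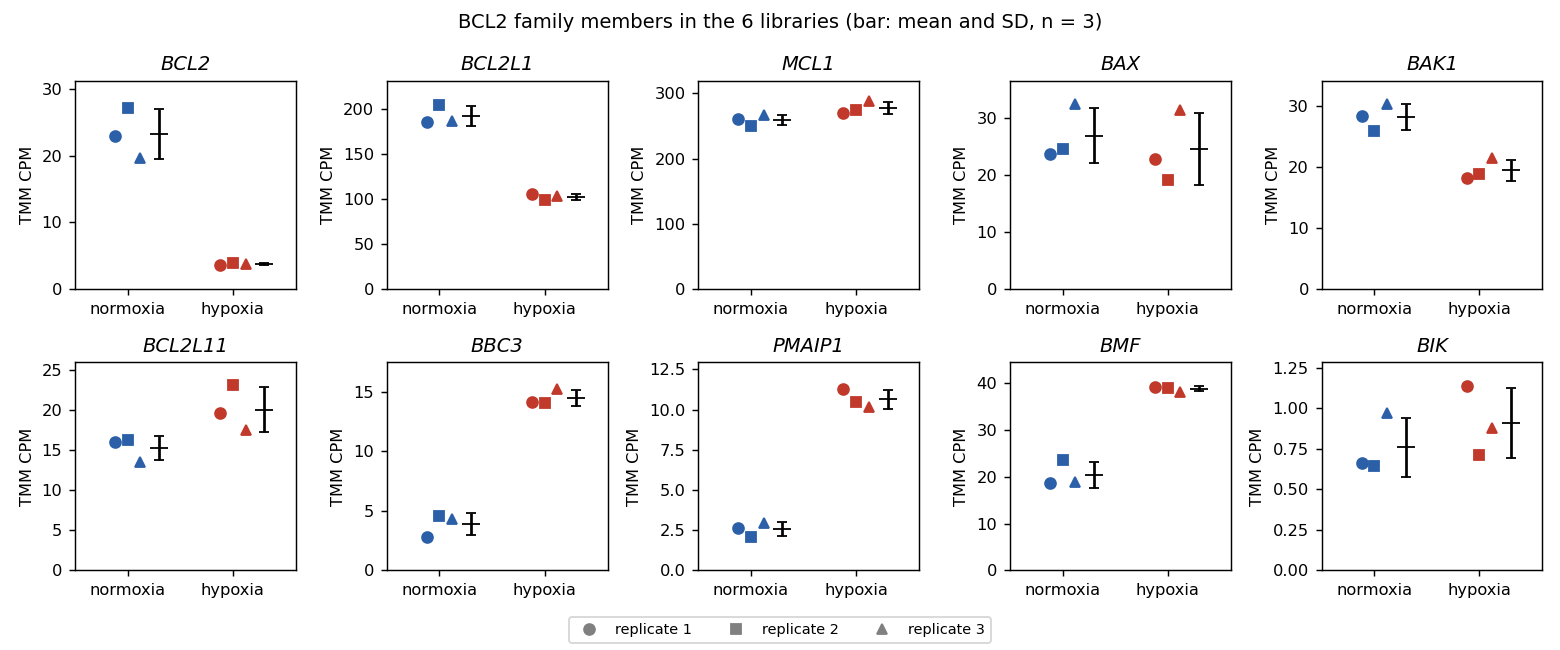
TMM-normalised CPM (y axis, from 0, a scale of its own for each gene) of the 10 members in normoxia (blue) and hypoxia (red), with 1 symbol per library by replicate number and bars for the mean and SD of 3 libraries. BCL2 falls from 23.2 to 3.75 CPM, BBC3 and PMAIP1 stand at 14.5 and 10.6 CPM in hypoxia, and the libraries of BAX and BIK overlap.

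BCL2, the founding antiapoptotic member and an estrogen receptor target, lies on the minus strand of chromosome 18 (hg19, chr18:60790579-60986613), where the files give 3 merged exons. Its level in normoxia was 22.9, 27.2 and 19.6 CPM in replicates 1, 2 and 3, and in hypoxia it was 3.58, 3.85 and 3.82 CPM. Every hypoxia library lay far below every normoxia library, and the hypoxia libraries were close to one another. The mean dropped from 23.2 ± 3.77 to 3.75 ± 0.148 CPM (SD, n = 3), a 6.19-fold lower level (log2-fold change −2.63, SE 0.145, 95% interval −2.97 to −2.29, edgeR adjusted p = 3.38e-05). Within replicate numbers the log2 difference was −2.67, −2.81 and −2.36. Of all tested genes, 0.134% had a lower log2-fold change than BCL2. The genes whose pattern over the 6 libraries came closest to that of BCL2 were SFXN2, MAP6D1 and OLFML3, with a root mean square log2 difference of 0.13, 0.16 and 0.21 among 12656 genes compared.

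BCL2L1, which encodes the long antiapoptotic form BCL-XL and by splicing the short proapoptotic form BCL-XS, lies on the minus strand of chromosome 20 (chr20:30252255-30311802, 6 merged exons). Its level was 184.7, 204.3 and 185.8 CPM in normoxia and 105.2, 98.8 and 103.1 CPM in hypoxia. The conditions stood well apart, with a mean of 191.6 ± 11.0 against 102.4 ± 3.26 CPM (SD, n = 3). The log2-fold change was −0.90 (SE 0.0745, 95% interval −1.08 to −0.73, edgeR adjusted p = 9.38e-05), and the counts sum both splice forms. An antisense gene, ABALON, shares 1311 exon bases with BCL2L1, and whether the counting used strand is not given in the sources used here. ABALON averaged 0.726 ± 0.351 CPM in normoxia and 0.512 ± 0.382 CPM in hypoxia (SD, n = 3), far under BCL2L1. Reads in the shared bases may be missing from both genes, so this low level does not settle how they were counted.

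MCL1, a short-lived antiapoptotic protein that binds BAK1, BCL2L11 and PMAIP1, lies on the minus strand of chromosome 1 (chr1:150547027-150552214, 3 merged exons). Its level was 260.4, 250.3 and 266.2 CPM in normoxia and 269.2, 274.7 and 288.0 CPM in hypoxia. Each hypoxia library was above each normoxia library, by little. The log2-fold change of MCL1 was 0.10 (SE 0.069, 95% interval −0.06 to 0.26, edgeR adjusted p = 0.246), so a rise above 0.26 lay outside the interval. With upper-quartile factors its log2-fold change was 0.26 (edgeR adjusted p = 0.0104) and with library totals it was 0.21 (edgeR adjusted p = 0.0211), settings that also moved the median of all tested genes upward. As with BCL2L1, long and short splice forms are counted together.

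BAX, the effector that moves from the cytosol to mitochondria, lies on the plus strand of chromosome 19 (chr19:49458117-49465055, 7 merged exons). Its level was 23.7, 24.6 and 32.5 CPM in normoxia and 22.9, 19.1 and 31.5 CPM in hypoxia. Replicate 3 was the highest library of both conditions, and the conditions overlapped. The log2-fold change of BAX was −0.13 (SE 0.198, 95% interval −0.59 to 0.33, edgeR adjusted p = 0.596), and its sign turned with upper-quartile factors (0.03), without normoxia replicate 3 (0.02) and without hypoxia replicate 2 (0.02).

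BAK1, the effector that sits in the mitochondrial membrane and is held there by MCL1 and BCL-XL, lies on the minus strand of chromosome 6 (chr6:33540323-33548070, 6 merged exons). Its level was 28.3, 25.9 and 30.3 CPM in normoxia and 18.1, 18.8 and 21.4 CPM in hypoxia. The conditions did not overlap, and the mean dropped from 28.2 ± 2.19 to 19.4 ± 1.74 CPM (SD, n = 3). The log2-fold change of BAK1 was −0.53 (SE 0.105, 95% interval −0.77 to −0.29, edgeR adjusted p = 0.00327). Leaving out replicate 1 of both conditions ended the call (−0.48, edgeR adjusted p = 0.0727).

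PMAIP1, the gene of NOXA, a BH3-only protein that binds MCL1 and promotes its degradation, lies on the plus strand of chromosome 18 (chr18:57567192-57571538, 2 merged exons). Its level was 2.66, 2.10 and 2.97 CPM in normoxia and 11.3, 10.5 and 10.2 CPM in hypoxia. All hypoxia libraries were far above all normoxia libraries. The mean rose 4.13-fold, from 2.58 ± 0.444 to 10.6 ± 0.582 CPM (SD, n = 3; log2-fold change 2.05, SE 0.164, 95% interval 1.67 to 2.43, edgeR adjusted p = 8.32e-05), and 94.1% of tested genes had a lower log2-fold change. PMAIP1 had the highest log2-fold change of the members, and the genes closest to it in pattern were ID2, GADD45A and ETS2, with a root mean square log2 difference of 0.08, 0.10 and 0.11 over the 6 libraries.

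BBC3, the gene of PUMA, a BH3-only protein that binds every antiapoptotic member, lies on the minus strand of chromosome 19 (chr19:47724079-47736023, 5 merged exons). Its level was 2.84, 4.57 and 4.33 CPM in normoxia and 14.1, 14.1 and 15.2 CPM in hypoxia. The hypoxia libraries were tightly grouped, and the lowest normoxia library was replicate 1. The mean rose 3.71-fold, from 3.91 ± 0.938 to 14.5 ± 0.672 CPM (SD, n = 3; log2-fold change 1.89, SE 0.185, 95% interval 1.46 to 2.32, edgeR adjusted p = 1.74e-04).

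BMF, a BH3-only protein released from the actin cytoskeleton after loss of attachment, lies on the minus strand of chromosome 15 (chr15:40380091-40401085, 6 merged exons). Its level was 18.7, 23.5 and 18.9 CPM in normoxia and 39.1, 38.9 and 38.1 CPM in hypoxia. The conditions stood apart, and the hypoxia libraries were almost equal. The mean rose 1.90-fold, from 20.4 ± 2.73 to 38.7 ± 0.506 CPM (SD, n = 3; log2-fold change 0.93, SE 0.108, 95% interval 0.68 to 1.18, edgeR adjusted p = 3.23e-04).

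BCL2L11, the gene of BIM, a BH3-only protein that activates BAX and BAK1 directly and is a FOXO target, lies on the plus strand of chromosome 2 (chr2:111878491-111926022, 12 merged exons). Its level was 16.1, 16.3 and 13.5 CPM in normoxia and 19.6, 23.1 and 17.5 CPM in hypoxia. The conditions did not overlap, but hypoxia replicate 3 lay close to the normoxia libraries. The log2-fold change of BCL2L11 was 0.39 (SE 0.134, 95% interval 0.08 to 0.70, edgeR adjusted p = 0.0360). This was the least stable of the calls, since it was lost in 8 of 17 alternative settings. They were those without normoxia replicate 1, 2 or 3, without hypoxia replicate 1 or 2, without replicate 1 or 2 of both conditions, and with hypoxia replicate 3 thinned to the depth of hypoxia replicate 1, with log2-fold changes of 0.27 to 0.44 and edgeR adjusted p of 0.0501 to 0.154.

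BIK, a BH3-only protein of the endoplasmic reticulum, lies on the plus strand of chromosome 22 (chr22:43506754-43525718, 5 merged exons) and was barely expressed, with 24 to 80 counts per library. Its level was 0.659, 0.645 and 0.969 CPM in normoxia and 1.14, 0.711 and 0.875 CPM in hypoxia. The conditions overlapped, and pair 3 moved opposite to pairs 1 and 2. The log2-fold change of BIK was 0.27 (SE 0.289, 95% interval −0.40 to 0.94, edgeR adjusted p = 0.445), so changes within that interval remain compatible with these libraries.

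**Figure D2:**
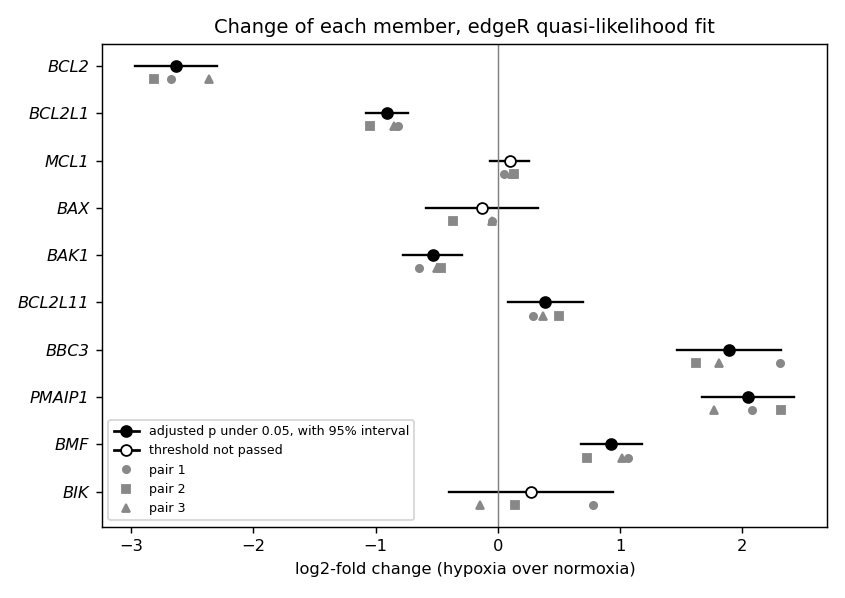
Log2-fold change of hypoxia over normoxia (x axis) for each member (y axis) from the edgeR quasi-likelihood fit, with its 95% interval, filled where the adjusted p was under 0.05, and with the 3 differences between same-numbered libraries drawn in grey beneath. The intervals of BCL2, BCL2L1 and BAK1 lie below 0, those of BCL2L11, BBC3, PMAIP1 and BMF above 0, and those of MCL1, BAX and BIK cross it.

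Promoter sequence was read from RefSeq (GRCh38.p14) for 8 of the 10 members, as 10 windows from 250 bases before to 50 bases after a start site. MCL1 and BIK had no entry. Both strands were searched for ACGTG and GCGTG, the core letters bound by hypoxia-inducible factors, and for TGATGNAA, a core of the sites bound by CHOP with ATF4. ACGTG was found in 2 of the 10 member windows and in 21.4% of all 35116 promoter windows, GCGTG in 4 of 10 and in 36.5%, and TGATGNAA in 0 of 10 and in 3.62%. The windows below show a match in the promoters of the 3 BH3-only members with the highest log2-fold changes, and for contrast the match nearest to the start of BAX, which did not pass the test. Each runs 5′ to 3′ on the strand of its gene, with the matched letters in capitals.
BBC3, chr19:47232884-47232908, minus strand, 231 bases before the start: gggagatttcACGTGagatatagat
PMAIP1, chr18:59899803-59899827, plus strand, 183 bases before the start: cgggtcgggaGCGTGtccgggcagg
PMAIP1, chr18:59899961-59899985, plus strand, 25 bases before the start: ctggacaaaaGCGTGgtctctggcg
BMF, chr15:40108925-40108949, minus strand, 60 bases before the start: tcagtcctcgGCGTGacgcgcaggg
BAX, chr19:48954852-48954876, plus strand, 13 bases before the start: cggggctctcACGTGacccgggcgc

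Among the members that rose, the BBC3 window held 2 ACGTG matches, which are the same CACGTG read on each strand. The PMAIP1 and BCL2L11 windows held 2 GCGTG matches each. For BMF, the first window held 1 GCGTG match and the second held 0 matches of any of the 3 motifs. The share of all promoters with either ACGTG or GCGTG was not counted, so matches of either motif have no background here. BAX had 9 ACGTG matches, counting CACGTG on both strands since it reads the same on each. Of the members that fell, the second BCL2L1 window held 1 GCGTG match, while the windows of BCL2 and BAK1 held 0 matches of any of the 3 motifs. With so few windows no difference from all promoters was tested, and a match gives letters in a window and says nothing of whether a factor was bound there in these cells.

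Per length, MCL1 was the most abundant member in both conditions, at 63.4 ± 1.97 RPKM in normoxia and 67.9 ± 2.37 RPKM in hypoxia (SD, n = 3). BCL2L1 came second at 56.9 ± 3.26 RPKM in normoxia and 30.4 ± 0.967 RPKM in hypoxia, so the lead of MCL1 was narrow in normoxia and wide in hypoxia. How reads in the bases that BCL2L1 shares with ABALON were counted is not given, so the narrow order in normoxia is uncertain. BAX followed at 20.6 ± 3.70 and 18.8 ± 4.85 RPKM, and BAK1 at 12.9 ± 0.998 and 8.87 ± 0.792 RPKM. Below the effectors the order changed between the conditions. In normoxia BMF stood at 4.26 ± 0.572 RPKM, BCL2 at 3.51 ± 0.570, BCL2L11 at 2.46 ± 0.250, BBC3 at 1.87 ± 0.448, PMAIP1 at 1.33 ± 0.229 and BIK at 0.795 ± 0.192. In hypoxia BMF stood at 8.10 ± 0.106 RPKM, BBC3 at 6.90 ± 0.321, PMAIP1 at 5.50 ± 0.301, BCL2L11 at 3.23 ± 0.458, BIK at 0.952 ± 0.225 and BCL2 at 0.567 ± 0.0223. BCL2 thus moved from rank 6 to rank 10 of the 10 members, and BBC3 and PMAIP1 passed BCL2L11. Library ranges of neighbours overlapped in normoxia for BMF with BCL2, BCL2L11 with BBC3, and BBC3 with PMAIP1, and for no neighbours in hypoxia.

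Summed by class, the antiapoptotic members gave 122.1, 126.0 and 123.3 RPKM in normoxia and 97.7, 97.2 and 101.7 RPKM in hypoxia. The effectors gave 31.0, 30.7 and 38.7 RPKM in normoxia and 25.8, 23.2 and 33.9 RPKM in hypoxia, with replicate 3 the highest both times. The BH3-only members gave 9.92, 11.5 and 10.7 RPKM in normoxia and 25.1, 24.7 and 24.2 RPKM in hypoxia. As a share of all 10 members, BH3-only mRNA was 6.08% to 6.83% in normoxia and 15.2% to 17.0% in hypoxia, and antiapoptotic mRNA 71.4% to 74.9% and 63.6% to 67.0%. Antiapoptotic mRNA therefore remained the larger part of the sum in every library. Within the antiapoptotic sum, MCL1 made up 48.6% to 52.9% in normoxia and 67.5% to 69.3% in hypoxia, BCL2L1 44.7% to 48.1% and 30.1% to 32.0%, and BCL2 2.41% to 3.26% and 0.554% to 0.599%. The BH3-only sum covers the 5 chosen members only. In CPM that sum was 40.6 to 47.1 in normoxia and 81.9 to 87.3 in hypoxia. Outside it, the BH3-only genes BID and BAD fell, from 51.9 to 31.0 and from 52.6 to 28.7 CPM. HRK, also outside it, rose from 0.103 to 1.39 CPM. The larger BH3-only share is thus a statement on these 5 members and not on all BH3-only mRNA. These sums are descriptions of mRNA, with no test, and are no measure of the proteins.

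**Figure D3:**
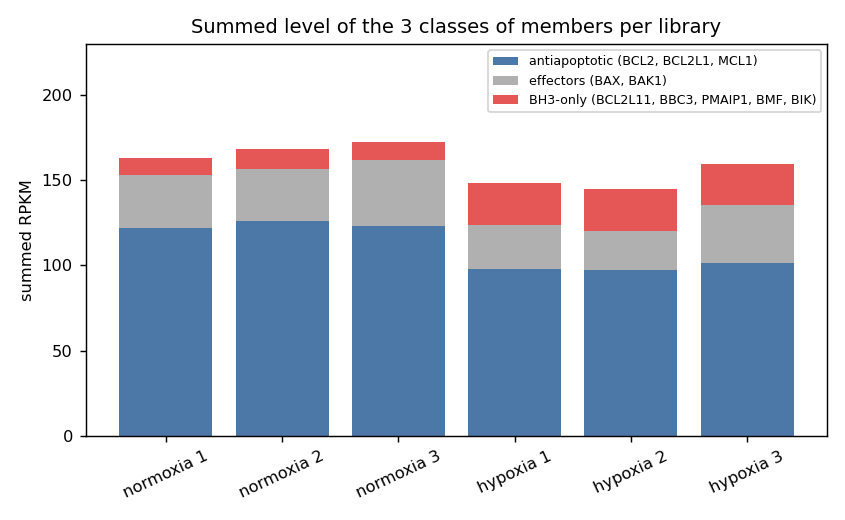
Summed RPKM (y axis, from 0) of the antiapoptotic, effector and BH3-only members stacked for each of the 6 libraries (x axis). The BH3-only part is 9.92 to 11.5 RPKM in the normoxia bars and 24.2 to 25.1 RPKM in the hypoxia bars, and the antiapoptotic part stays the largest. The BH3-only genes BID, BAD and HRK are not in the bars.

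The ratio of BCL2 to BAX, a common index of the balance between protection and pore formation, was taken within each library and does not depend on library scaling. Here BCL2 was at most 3.26% of the antiapoptotic sum, so the ratio follows BCL2 and does not describe the whole classes. The antiapoptotic sum was 122.1 to 126.0 RPKM in normoxia and 97.2 to 101.7 RPKM in hypoxia. The effector sum was 30.7 to 38.7 RPKM in normoxia and 23.2 to 33.9 RPKM in hypoxia. Per length it was 0.191, 0.218 and 0.119 in normoxia and 0.0308, 0.0397 and 0.0239 in hypoxia. Every hypoxia library was below every normoxia library, and replicate 3 was the lowest of its condition both times. The mean log2 ratio was −2.55 ± 0.456 in normoxia and −5.02 ± 0.366 in hypoxia (SD, n = 3), a difference of −2.47 (5.53-fold lower, two-sided exact permutation test, p = 0.1, the smallest that 3 against 3 libraries allow).

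Among the 11 other homologues, 7 could be tested, of which 2 were higher, 3 lower and 2 did not pass, with a median log2-fold change of −0.07. Beside them, 30.4% of all tested genes were higher and 29.1% lower. HRK, a neuronal BH3-only gene, had 2 to 5 counts per normoxia library and 54 to 125 counts per hypoxia library, or 0.103 ± 0.0429 and 1.39 ± 0.0743 CPM (SD, n = 3). It rose by this test (log2-fold change 3.73, edgeR adjusted p = 1.31e-04), from a level near the floor of 3 counts. BCL2L13, a mitochondrial mitophagy receptor, rose from 53.5 ± 2.35 to 69.2 ± 3.05 CPM (log2-fold change 0.37, edgeR adjusted p = 0.00429). Of the BH3-only genes outside the 10 members, BID, which is activated by caspase cleavage, and BAD, which is controlled by survival kinases, fell, with log2-fold changes of −0.74 (edgeR adjusted p = 9.25e-04) and −0.87 (edgeR adjusted p = 0.00208). BCL2L12 also fell (−0.90, edgeR adjusted p = 0.0138), and it was higher in replicate 3 of both conditions. The antiapoptotic BCL2L2 (0.07, edgeR adjusted p = 0.614) and the effector-like BOK (−0.07, edgeR adjusted p = 0.584) did not pass the test. BCL2A1, BCL2L10, BCL2L14 and BCL2L15 had 0 to 15 counts per library, too few to be tested. The number of homologues higher was 1 without replicate 1 or 2 of both conditions and 4 with no filter on low counts.

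Of the 4 BNIP genes, whose products bind BCL2 proteins, 2 were higher and 1 lower, with a median log2-fold change of 1.01. Among all tested genes 30.4% were higher and 29.1% lower. BNIP3, a mitophagy receptor and known hypoxia-inducible gene, rose from 51.1 ± 9.37 to 282 ± 56.2 CPM (log2-fold change 2.46, edgeR adjusted p = 7.38e-05). BNIP3L, its close relative NIX, rose from 64.1 ± 14.8 to 264 ± 21.7 CPM (log2-fold change 2.04, edgeR adjusted p = 9.40e-05). BNIP1 fell by 0.39 on the log2 scale (edgeR adjusted p = 0.0136), a call that was lost with upper-quartile factors, without hypoxia replicate 1 and without replicate 1 or 2 of both conditions. BNIP2 did not pass the test (−0.02, edgeR adjusted p = 0.871).

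Downstream of the members, 0 of 8 mitochondrial partner genes were higher and 7 were lower, with a median log2-fold change of −0.42. The background for each list here is all tested genes, of which 30.4% were higher and 29.1% lower, with a median of 0.03. The largest changes were in AIFM1, the apoptosis-inducing factor that also serves respiratory chain assembly (−1.49, edgeR adjusted p = 9.84e-05), and ENDOG, a mitochondrial nuclease (−1.07, edgeR adjusted p = 0.00790). The count was 4 with upper-quartile factors or library totals, and it ran from 3 to 7 when a library or a replicate number was left out. Of 9 apoptosome and caspase genes, 2 were higher and 4 lower, with a median of −0.29. APAF1, the scaffold of the apoptosome, rose by 0.76 (edgeR adjusted p = 6.38e-04) and the initiator CASP8 by 0.49 (edgeR adjusted p = 0.00162), while DFFA, the inhibitor of the apoptotic nuclease, fell by 0.86 (edgeR adjusted p = 0.00101) and CASP2 by 0.81 (edgeR adjusted p = 1.81e-04). Of 6 inhibitor of apoptosis genes, 3 were higher and 1 lower, with a median of 0.34. BIRC3 rose by 2.27 (edgeR adjusted p = 9.78e-05) and BIRC7 by 2.06 (edgeR adjusted p = 2.11e-04), and BIRC5, or survivin, which also serves cell division, fell by 0.94 (edgeR adjusted p = 0.00921). Without replicate 1 of both conditions, 1 apoptosome or caspase gene was higher and the call of BIRC5 was lost.

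Genes that act on the members gave a mixed picture, beside 30.4% of all tested genes higher and 29.1% lower, with a median of 0.03. Of 7 genes for binding partners and turnover enzymes, 0 were higher and 2 lower, with a median log2-fold change of −0.01. The 2 lower genes were DYNLL1, a dynein light chain that holds BCL2L11 (−0.49, edgeR adjusted p = 0.00223), and HUWE1, a ubiquitin ligase of MCL1 (−0.39, edgeR adjusted p = 0.00358). In the fit with the replicate block, 2 were higher and 3 lower. The number higher was 3 with upper-quartile factors and 2 with library totals, without hypoxia replicate 3 or without replicate 3 of both conditions, and the number lower was 0 without replicate 1 of both. Of 17 transcription factors known to act on members, 8 were higher and 6 lower, with a median of 0.31. DDIT3, the gene of the stress factor CHOP, rose by 2.71 (edgeR adjusted p = 7.04e-05) and FOXO1, a forkhead factor, by 1.68 (edgeR adjusted p = 7.04e-05). The hormone receptor genes PGR and ESR1 fell by 2.93 (edgeR adjusted p = 5.99e-05) and 1.86 (edgeR adjusted p = 2.06e-05).

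**Figure D4:**
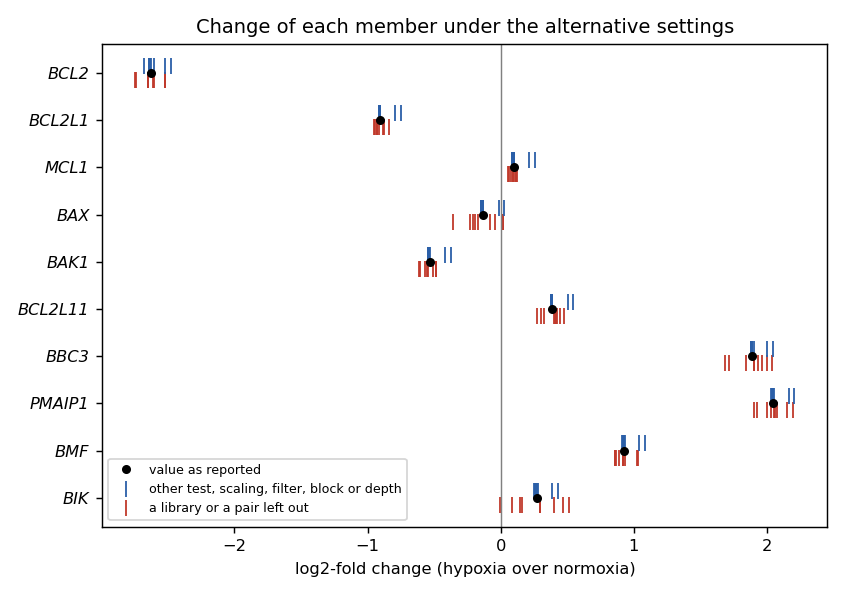
Log2-fold change of hypoxia over normoxia (x axis) of each member (y axis) as reported (black) and under alternative settings, with other tests, scalings, filters, block or depth in blue and fits without a library or a replicate number in red. BCL2 stays between −2.75 and −2.48 and PMAIP1 between 1.90 and 2.21, whereas BAX and BIK reach both sides of 0.

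Across the 17 alternative settings, BCL2, BCL2L1, BBC3, PMAIP1 and BMF passed the threshold every time. BCL2L1 ranged from −0.95 to −0.75, BBC3 from 1.69 to 2.05 and BMF from 0.86 to 1.08 on the log2 scale. BAK1 ranged from −0.61 to −0.38 and kept its direction.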

How the data were processed

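RNA sequencing of 3 normoxia and 3 hypoxia libraries of T47D cells was analysed. Per the labels, libraries were stranded mRNA. The authors trimmed reads with Skewer, aligned them with STAR to hg19 and ran featureCounts on the RefSeq genes. The submitters' processing notes name FastQC 0.11.5, STAR 2.5.2a and featureCounts 1.5.1. The deposited values are raw counts per gene, with the exon length of each gene, and were not normalized. The treatment of strand and of reads with several matches is not given in the sources used here.

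Counts were filtered with filterByExpr (minimum count 10, minimum total count 15), scaled by TMM and tested with edgeR's quasi-likelihood test with condition as the only term, on all 6 libraries, with Benjamini-Hochberg adjustment over 15657 genes at 0.05. The standard error was derived from the log2-fold change and its F statistic. Total counts per library ran from 32989104 to 89883409, and intervals and floors cover counting error or library spread only. R 4.3.3, edgeR 4.0.16, limma 3.58.1, DESeq2 1.42.0, Python 3.11.15 and matplotlib 3.10.9 were used, and the fit was tested on simulated data.

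The members, gene lists and named genes were chosen with earlier results of these data known. Named were the 10 members, all other BCL2 homologues and BNIP genes, of the other lists the 2 highest and 2 lowest log2-fold changes past the threshold, and for the highest and lowest member the 3 genes closest in pattern with a mean of at least 100 counts. VEGFA, CA9, the cell type markers and ABALON were named for checks, some after their values were seen. One of the lists is not reported here.

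The study's methods call the hypoxia and normoxia samples paired. Same-numbered libraries deviated together from their condition means (correlations 0.453, 0.519 and 0.634 across genes). Replicate numbers in the labels were treated as pairs in an alternative fit with the replicate block. The standard errors, intervals and p-values of the main fit ignore the pairs. The common coefficient of variation estimated by edgeR was 0.141 without the block and 0.0751 with it. The other alternatives were edgeR's exact test, DESeq2, other scalings, no filter, each library or replicate number left out, a fold threshold, and hypoxia replicate 3 thinned, which was chosen after seeing the data.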

Additional observations from a re-analysis of the deposited data

How the results depend on the processing

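With the replicate number as a block, no call of a member changed, and 4 members were higher and 3 lower. A change of at least 1 on the log2 scale left 2373 genes higher and 768 lower, of which 2 and 1 were members. Leaving out a library or a replicate number gave 2648 to 5751 genes higher and 2191 to 5506 lower, the lowest without replicate 1. BAX changed sign with upper-quartile factors (0.0282) and ran from −0.36 to 0.0215 on the log2 scale when a library or a replicate number was left out. BIK ran from −0.00719 to 0.52 in the same fits and was below 0 without replicate 1. The log2 ratio of BCL2 to BAX differed between the conditions by −2.72 to −2.28 over 11 alternatives. Among these, raw counts without the length and the comparison within pairs return the reported −2.47 by construction, so they are no check of it. Within pairs the exact permutation test gave p = 0.25. The order of the members by RPKM was the same by TPM for 10 of 10. Within a library both measures scale the same counts per length, so this is no independent check. The cause of these changes was not tested. Depth limited BIK, HRK and the homologues with few counts, and 3 libraries a condition limit every interval.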

Other observations

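HIF1A and EPAS1, which encode the oxygen-regulated subunits of the hypoxia-inducible factors and were among the transcription factors listed for the members, differed from each other. HIF1A mRNA fell from 136 ± 4.78 to 52.6 ± 8.88 CPM (SD, n = 3, log2-fold change −1.37, edgeR adjusted p = 1.42e-04), and EPAS1 was at 151 ± 22.9 and 150 ± 14.6 CPM (edgeR adjusted p = 0.996). CYCS, the gene of cytochrome c, fell from 457 ± 55.1 to 237 ± 22.3 CPM (log2-fold change −0.95, edgeR adjusted p = 3.38e-04). These genes were chosen after their values were seen.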
